A study of Rattus norvegicus with 22 samples.

Results

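Visceral fat from the mesentery was compared with subcutaneous fat from the groin of rats with type 2 diabetes (T2DM), across all genes measured by RNA-seq. The comparison took every library labelled T2DM, which gave 6 visceral and 5 subcutaneous libraries, 11 of the 22 in the series. The other 11 libraries, 6 visceral and 5 subcutaneous, came from the same depots after duodenal-jejunal bypass (DJB), surgery that lets food skip the first part of the small intestine. They are used here as a further measurement of the depot difference. All of these rats, T2DM and DJB alike, are labelled wild type (WT) on a high-fat diet (HFD), and the shared treatment text names streptozotocin (STZ), which kills pancreatic beta cells, at 30 mg/kg. That text also names the bypass for every sample, so a sham operation in the T2DM rats is neither stated nor denied. The sample titles give 4 months without saying what was 4 months old or long. The labels name no strain, no sex and no healthy group. Whether each library of a group stands for a different rat is not said, and the p-values therefore cover only the spread among these libraries, which may be technical. RNA was taken from whole tissue, and in such samples fewer cells of a type and less RNA per cell cannot be told apart.

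Mesenteric fat lies along the gut and drains through the portal vein to the liver, whereas groin fat lies under the skin. Adipocytes of both depots store triglyceride, release fatty acids and secrete hormones such as adiponectin and leptin, but they arise from different mesodermal precursors and carry different developmental transcription factors. In rodents the groin fat pad also encloses mammary glands, and the mesentery is covered by mesothelium and holds vessels and lymph nodes.

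Libraries held between 58951508 and 79629743 counts in visceral T2DM fat and between 49155556 and 83319267 counts in subcutaneous T2DM fat. Levels per library are given as CPM, a gene's share of a library's counts scaled to parts per 1e6, with TMM-scaled library sizes. Both tissues carried the label's defining adipocyte marker in every library, with Adipoq, the adiponectin gene, between 1434 and 7216 CPM in visceral and between 102 and 638 CPM in subcutaneous fat. Some libraries stood apart within their group. Milk protein and mammary alveolar genes took 0.123% ± 0.0351 of counts in visceral fat and 10.6% ± 7.19 in subcutaneous fat (SD, n = 6 and 5). The 6 visceral libraries ranged from 0.061% to 0.158%, while subcutaneous libraries 1 to 4 had 11.3%, 11.8%, 9.46% and 20.4% and library 5 had 0.246%. In subcutaneous library 4 the casein gene Csn1s1 alone took 17.5% of all counts. The groups did not overlap, and the exact two-sided permutation test gave p = 0.00216, the smallest that the 462 splits of 6 against 5 libraries allow.

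The mitochondrial genome took 26.9% ± 11.1 of counts in visceral fat and 9.45% ± 4.13 in subcutaneous fat (SD, n = 6 and 5; exact two-sided permutation p = 0.00866). Visceral libraries spanned 11.1% to 45.0% and subcutaneous libraries 5.51% to 16.3%, so the groups overlapped. Genes of the urothelium, the lining of the urinary tract, took 0.127% ± 0.159 of counts in visceral fat and 0.0248% ± 0.00508 in subcutaneous fat (SD, n = 6 and 5; exact two-sided permutation p = 0.212). Visceral libraries 2, 3 and 4 reached 0.127%, 0.399% and 0.220%, above every subcutaneous library, while visceral libraries 1, 5 and 6 lay below all of them. Without visceral library 3 the difference of 0.102 percentage points was 0.0481. These shares move with many results below, and their part in those results was not tested. Beside many of these results stands the value without the libraries concerned. Without the 4 milk-rich subcutaneous libraries, 1 gene of the 49 lists was called, Tbx15.

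**Figure D1:**
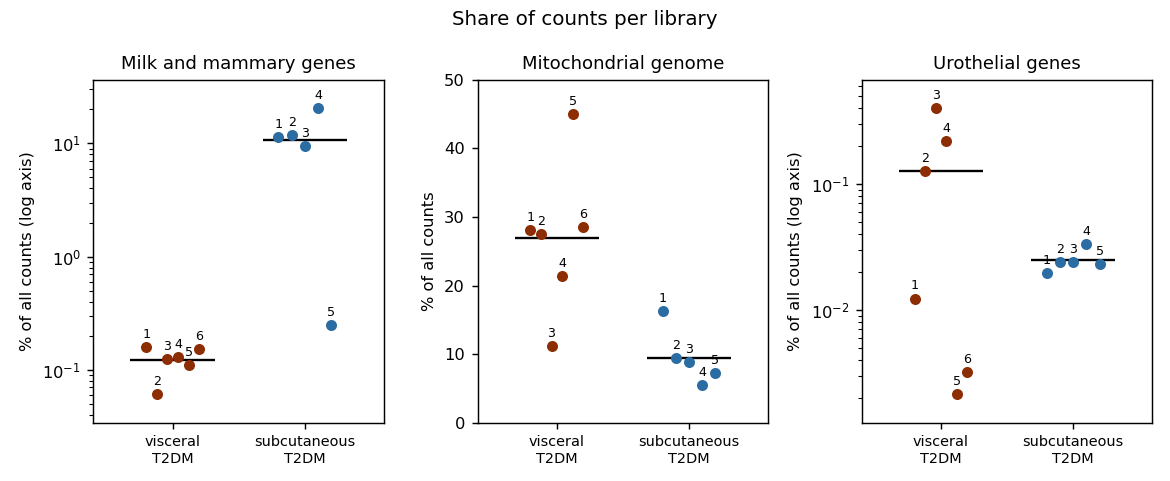
Share of all counts per library on milk and mammary genes (left, log axis), the mitochondrial genome (middle, linear axis) and urothelial genes (right, log axis), with visceral T2DM libraries in red on the left of each panel and subcutaneous T2DM libraries in blue; numbers are replicate numbers and bars are means. Subcutaneous library 5, at 0.246%, sits near the visceral libraries for milk genes, and visceral libraries 2, 3 and 4 stand above the rest for urothelial genes.

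Of 14019 genes tested with edgeR's quasi-likelihood test and Benjamini-Hochberg adjustment, 1222 (8.72%) differed between the depots at an adjusted p under 0.05. Of these, 762 (5.44%) were higher and 460 (3.28%) were lower in visceral fat. The counts of called list members below are to be read beside these shares of all tested genes. The median log2 fold change of all tested genes was 0.02, and 3452 genes had an unadjusted p under 0.05. All 6 visceral libraries lay above all 5 subcutaneous libraries for 359 genes (2.56% of those tested), and below them for 274 genes (1.95%). Subcutaneous library 5, the library low in milk genes, was below every visceral library for 497 of the 762 higher genes (65.2%, against 13.9% of all tested genes). It was above every visceral library for 203 of the 460 lower genes (44.1%, against 14.6% of all tested genes). Library 5 entered the mean by which these genes were called, so part of both excesses was built in and they do not test the calls. With the 4 milk-rich subcutaneous libraries left out, library 5 alone stood for its group and was assumed to vary like the other groups, and 8 genes were called. With visceral libraries 2 and 5 left out, 454 genes were called, 207 higher and 247 lower.

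Milk and mammary alveolar genes were lower in visceral fat as a group. Of 17 tested members, of 21 listed, 15 were lower, none was higher and the median log2 fold change was -7.19. Csn1s1, which encodes the milk protein alpha-S1-casein, had 479, 334, 244, 408, 384 and 450 CPM in visceral libraries 1 to 6, against 82810, 78630, 68720, 172100 and 474 CPM in subcutaneous libraries 1 to 5. The first 4 subcutaneous libraries were far above every visceral library, whereas the fifth lay among them. The log2 fold change was -7.72 (SE 1.42, edgeR adjusted p = 0.00301). Btn1a1, which encodes butyrophilin of the milk fat globule, had between 1.53 and 5.73 CPM in visceral fat, against 1541, 1264, 753, 2226 and 5.27 CPM in subcutaneous fat, and its log2 fold change was -8.69 (SE 1.36, adjusted p = 0.00113). Elf5, a transcription factor of mammary alveolar cells, had between 0.419 and 0.812 CPM in visceral fat, against 154, 124, 94.0, 255 and 0.566 CPM in subcutaneous fat, with a log2 difference of -7.77 (SE 1.21, adjusted p = 0.00113). Without the 4 milk-rich libraries the list's median was 0.02. Those libraries were picked by their counts on this same list, so a smaller difference followed from the choice itself.

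The 4 casein genes named next moved together across these libraries. The sequence before their starts is shown because each holds a match to a short symmetric pattern there. Promoters were taken from RefSeq on build GRCr8, from 250 bases before to 50 bases after the annotated start. The motif searched was TTCNNNGAA, which reads the same on both strands and is the form of site that STAT transcription factors, STAT5 in the mammary gland among them, are known to bind. Capitals mark each match.
Csn1s1 (chr14:20638800-20639099, minus strand): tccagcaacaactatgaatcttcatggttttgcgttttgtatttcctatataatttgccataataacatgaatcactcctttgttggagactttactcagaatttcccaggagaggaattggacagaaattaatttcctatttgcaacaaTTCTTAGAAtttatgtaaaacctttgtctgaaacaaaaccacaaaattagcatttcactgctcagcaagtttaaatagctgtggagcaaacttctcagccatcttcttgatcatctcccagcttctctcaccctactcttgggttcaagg
Csn1s2a (chr14:20574422-20574721, minus strand): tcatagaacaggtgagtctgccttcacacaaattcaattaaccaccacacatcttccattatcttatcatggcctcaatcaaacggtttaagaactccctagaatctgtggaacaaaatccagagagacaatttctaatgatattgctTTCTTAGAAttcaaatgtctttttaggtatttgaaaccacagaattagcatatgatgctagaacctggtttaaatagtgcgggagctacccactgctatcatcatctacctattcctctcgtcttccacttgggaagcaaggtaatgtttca
Csn1s2b (chr14:20545569-20545868, minus strand): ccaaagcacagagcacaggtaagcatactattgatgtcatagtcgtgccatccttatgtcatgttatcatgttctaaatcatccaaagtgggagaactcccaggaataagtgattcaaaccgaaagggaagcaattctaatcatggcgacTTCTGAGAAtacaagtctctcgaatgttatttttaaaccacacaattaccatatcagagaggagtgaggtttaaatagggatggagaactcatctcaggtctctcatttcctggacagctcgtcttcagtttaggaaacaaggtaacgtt
Csn2 (chr14:20601574-20601873, plus strand): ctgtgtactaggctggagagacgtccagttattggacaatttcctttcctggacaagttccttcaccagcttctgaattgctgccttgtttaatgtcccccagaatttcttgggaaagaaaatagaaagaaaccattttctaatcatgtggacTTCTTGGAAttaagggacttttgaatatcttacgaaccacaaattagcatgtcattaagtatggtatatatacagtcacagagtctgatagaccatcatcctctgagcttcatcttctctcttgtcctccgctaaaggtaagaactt
The match began 100 bases before the start in Csn1s1 and Csn1s2b, 102 bases before it in Csn1s2a and 97 bases before it in Csn2. Of the 16 tested milk genes with a promoter in the table, 6 held the motif. It was present in 684 of the 9747 tested genes with a promoter (7.02%) and in 2970 of all 33469 promoters of that length (8.87%). A match is a description of these letters, and binding was not measured. No match was found in the windows of Csn3, Lalba and Btn1a1, among others.

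Some developmental transcription factor genes separated the depots. Tcf21, a factor of visceral mesoderm and of visceral fat precursors, had 28.1, 46.4, 29.8, 20.7, 8.21 and 12.9 CPM in visceral libraries 1 to 6, against 0, 0.245, 0.150, 0.160 and 0.149 CPM in subcutaneous libraries 1 to 5. Every visceral library was above every subcutaneous library, and the log2 fold change was 7.39 (SE 0.90, edgeR adjusted p = 0.000158). Wt1, a factor of mesothelium and of visceral fat precursors, had 29.8, 11.8, 2.65, 7.25, 6.05 and 13.4 CPM in visceral fat, against 0, 0.163, 0.240, 0.120 and 0.194 CPM in subcutaneous fat. Here too no libraries overlapped, and the log2 fold change was 6.34 (SE 0.83, adjusted p = 0.000471). Gata6, a zinc finger factor of mesoderm and endoderm, averaged 11.6 ± 4.48 CPM in visceral and 3.44 ± 1.38 CPM in subcutaneous fat (SD, n = 6 and 5; log2 fold change 1.75, SE 0.40, adjusted p = 0.0111). Nr2f1, an orphan nuclear receptor, averaged 12.7 ± 3.14 CPM in visceral and 4.85 ± 1.34 CPM in subcutaneous fat (SD, n = 6 and 5; log2 fold change 1.38, SE 0.30, adjusted p = 0.00737). Both stayed called without visceral libraries 2 and 5, with adjusted p of 0.0161 for Gata6 and 0.0123 for Nr2f1. Gata6 was no longer called without the urothelium-rich visceral libraries 2, 3 and 4, at an adjusted p of 0.066. Of 24 genes listed as visceral developmental genes, 20 had a row and 8 were tested, of which 5 were higher and none was lower (median log2 fold change 1.56, 3 values negative). The other 12 did not reach 1 FPKM in 5 libraries, and a gene confined to 1 depot could pass that filter only through the depot where it was high.

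The subcutaneous side was marked by Tbx15 and the Iroquois genes Irx1, Irx2 and Irx5. Tbx15, a T-box factor of subcutaneous and other trunk mesenchyme, had 0.442, 0.904, 0.357, 0.443, 1.25 and 1.91 CPM in visceral libraries 1 to 6, against 14.8, 21.2, 25.4, 17.8 and 79.2 CPM in subcutaneous libraries 1 to 5. All subcutaneous libraries, the milk-poor library 5 highest among them, were above all visceral libraries, and the log2 fold change was -5.17 (SE 0.61, edgeR adjusted p = 0.000132). Irx1, an Iroquois homeobox factor, had 0.379, 0.185, 0, 0.242, 0.590 and 0.273 CPM in visceral fat, against 54.6, 36.0, 30.4, 58.3 and 27.6 CPM in subcutaneous fat. Again the groups were apart, with a log2 difference of -7.24 (SE 1.00, adjusted p = 0.000608). Of its relatives, Irx2 had a log2 difference of -5.67 (SE 1.00, adjusted p = 0.00243) and Irx5 one of -5.24 (SE 1.00, adjusted p = 0.00376). Irx3, the other listed Iroquois gene, was tested and not called. Shox2, a homeobox factor of limb and subcutaneous mesenchyme, averaged 2.10 ± 1.15 CPM in visceral and 8.01 ± 3.83 CPM in subcutaneous fat (SD, n = 6 and 5). Its log2 fold change was -1.93 (SE 0.51, adjusted p = 0.0218), and the call was lost without subcutaneous library 2 or without subcutaneous library 3 (largest adjusted p 0.0559). Of 17 tested genes listed as subcutaneous developmental genes, of 27 listed, 5 were lower and none was higher (median -0.82, 2 values positive).

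Tbx15 and Irx1 were also called when log2 milk gene share was added to the model as a covariate, with log2 fold changes of -6.17 (edgeR adjusted p = 0.000151) and -5.41 (adjusted p = 0.0396). The covariate was chosen after the data were seen. It did not overlap between the depots in T2DM fat, so that model can hardly tell milk share from depot. With the 4 milk-rich libraries left out instead, Tbx15 stayed called (-6.48, adjusted p = 0.000746) and Irx1 did not (-6.64, adjusted p = 0.0681). Irx2 and Irx5 were called in neither setting. In the covariate model Tcf21 had a log2 fold change of 7.26 with an adjusted p of 0.0641, and Wt1 one of 5.96 with an adjusted p of 0.29. Hox genes, which set position along the body axis, held 1 call, where 5.44% of all tested genes were higher in visceral fat. Of 22 tested Hox genes, of 39 listed, Hoxa4 was higher in visceral fat (log2 fold change 1.92, SE 0.58, adjusted p = 0.0429) and none was lower. The Hoxa4 call was lost without visceral library 2 or 5, or without any 1 of the 5 subcutaneous libraries. Hoxc10 averaged 5.45 ± 2.08 CPM in visceral and 6.17 ± 2.05 CPM in subcutaneous fat (SD, n = 6 and 5; log2 fold change -0.18, SE 0.39, adjusted p = 0.835).

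**Figure D2:**
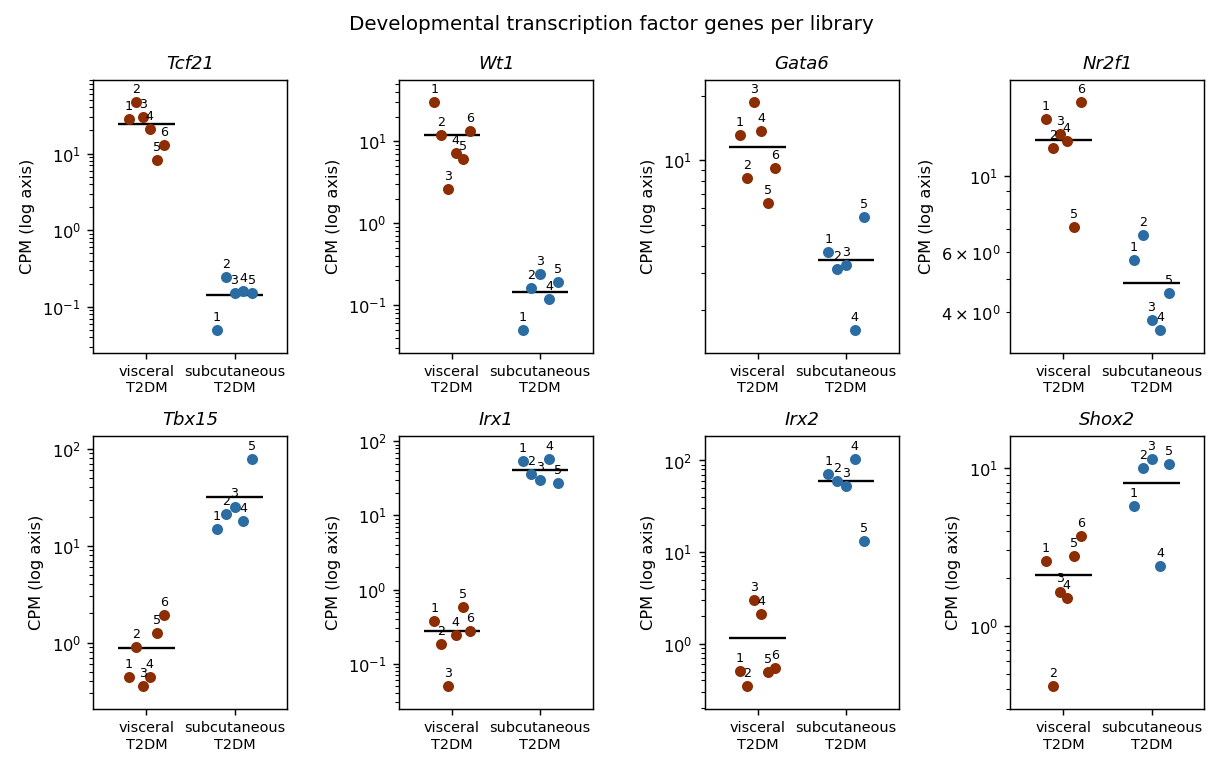
CPM per library (log axis) of 8 developmental transcription factor genes, visceral T2DM in red on the left and subcutaneous T2DM in blue on the right of each panel; numbers are replicate numbers, bars are means, and values of 0 are drawn at 0.05 CPM. Tcf21, Wt1, Gata6 and Nr2f1 lie higher in every visceral library, Tbx15, Irx1 and Irx2 lie higher in every subcutaneous library, and Shox2 overlaps.

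Adipocyte genes were higher in visceral fat. Of 19 tested adipocyte markers, 13 were higher, none was lower, and all 19 log2 fold changes were positive (median 2.70). Adipoq had 1434, 7216, 1785, 1873, 3721 and 3188 CPM in visceral libraries 1 to 6, against 191, 102, 638, 166 and 218 CPM in subcutaneous libraries 1 to 5. The lowest visceral library was above the highest subcutaneous library, and the log2 fold change was 3.60 (SE 0.82, edgeR adjusted p = 0.0103). Pparg, the master regulator of adipocyte differentiation, had 134, 319, 308, 191, 320 and 296 CPM in visceral fat, against 65.3, 55.3, 96.9, 28.8 and 46.3 CPM in subcutaneous fat, again without overlap (log2 fold change 2.16, SE 0.52, adjusted p = 0.0134). Cebpa, its partner in differentiation, was higher by 2.83 on the log2 scale (SE 0.68, adjusted p = 0.014). Fabp4, the adipocyte fatty acid carrier, averaged 10860 ± 11760 CPM in visceral and 1427 ± 502 CPM in subcutaneous fat (SD, n = 6 and 5; log2 fold change 2.93, SE 0.76, adjusted p = 0.0202). Its call was lost without visceral library 2, which had 34120 CPM, and without subcutaneous library 2 or 4. Without visceral libraries 2 and 5 together, none of the 19 markers was called, Adipoq had an adjusted p of 0.0544 and the median was 2.12. The milk-poor subcutaneous library 5 was below every visceral library for 17 of the 19 markers, against 13.9% of all tested genes. Library 5 entered the mean by which the markers were called, so this count does not test the calls.

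Hormones and receptors gave a mixed picture. Of 30 tested adipokine genes, 5 were higher and Lcn2 was lower (median 1.09). Rbp4, the retinol carrier, averaged 308 ± 268 CPM in visceral and 28.2 ± 20.3 CPM in subcutaneous fat (SD, n = 6 and 5; log2 fold change 3.45, SE 0.80, edgeR adjusted p = 0.0108), and had an adjusted p of 0.0796 without visceral libraries 2 and 5. Lep, the leptin gene, had 163, 10.9, 121, 150, 187 and 90.4 CPM in visceral fat, against 9.87, 4.37, 79.6, 13.3 and 11.4 CPM in subcutaneous fat. Visceral library 2 and subcutaneous library 3 crossed into the other group's range, and Lep did not pass the test (log2 fold change 2.34, SE 1.09, adjusted p = 0.187). Lcn2, an iron-binding secreted protein also made by epithelium, had between 4.54 and 26.0 CPM in visceral fat, against 202, 233, 365, 588 and 9.71 CPM in subcutaneous fat. The milk-poor library 5 again lay within the visceral range (log2 fold change -4.38, SE 1.17, adjusted p = 0.024), and the call was lost without visceral library 2 or subcutaneous library 4. Serpina12, the vaspin gene, averaged 0.993 ± 0.882 CPM in visceral and 0.112 ± 0.115 CPM in subcutaneous fat (SD, n = 6 and 5; adjusted p = 0.124), and Fndc5, which encodes the irisin precursor, had an adjusted p of 0.0644.

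The receptor genes on which the growth hormone and adiponectin axes depend did not pass the test. Ghr, the growth hormone receptor, averaged 321 ± 108 CPM in visceral and 132 ± 62.2 CPM in subcutaneous fat (SD, n = 6 and 5; log2 fold change 1.28, SE 0.50, edgeR adjusted p = 0.111). Igf1, a growth hormone target, had a log2 value of 1.57 (SE 0.49, adjusted p = 0.0507), just outside the threshold. Adiponectin receptor genes Adipor1 and Adipor2 had log2 fold changes of 0.17 (SE 0.18, adjusted p = 0.616) and 0.99 (SE 0.47, adjusted p = 0.197). Stat5a, which carries the growth hormone and prolactin signal, had between 22.1 and 73.3 CPM in visceral fat, against 246, 177, 168, 409 and 39.7 CPM in subcutaneous fat. It was lower in visceral fat by the test (log2 fold change -2.56, SE 0.44, adjusted p = 0.00191), while the milk-poor library 5 lay within the visceral range. Of 18 tested genes of growth hormone signalling, 2 were higher and 2 lower (median 0.03), and of 12 adiponectin receptors and adaptors, Adipoq itself and Ppara were higher and none was lower (median 0.21).

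Among 26 tested insulin signalling genes, Akt2 and Irs2 were higher and Slc2a1 was lower (median 0.09). Across all tested genes, 5.44% were higher and 3.28% lower, so these counts lie near the background. Akt2, the kinase isoform that carries the insulin signal to glucose uptake, averaged 172 ± 122 CPM in visceral and 69.2 ± 18.7 CPM in subcutaneous fat (SD, n = 6 and 5; log2 fold change 1.31, SE 0.34, edgeR adjusted p = 0.0213). That call was lost without visceral library 5, which had 407 CPM, or without subcutaneous library 1, 2 or 4. Insr, the insulin receptor, had a log2 value of -0.39 (SE 0.38, adjusted p = 0.576). Slc2a4, the insulin-regulated glucose transporter GLUT4, had 34.0, 91.9, 94.5, 59.9, 186 and 44.4 CPM in visceral fat, against 29.7, 28.9, 29.4, 11.3 and 25.3 CPM in subcutaneous fat. The groups did not overlap, yet the gene missed the threshold (log2 fold change 1.77, SE 0.56, adjusted p = 0.0531). Slc2a1, the basal glucose transporter GLUT1, had between 6.36 and 17.8 CPM in visceral fat, against 86.3, 69.1, 57.8, 144 and 9.74 CPM in subcutaneous fat, with library 5 again at visceral levels (log2 fold change -2.64, SE 0.53, adjusted p = 0.00469).

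**Figure D3:**
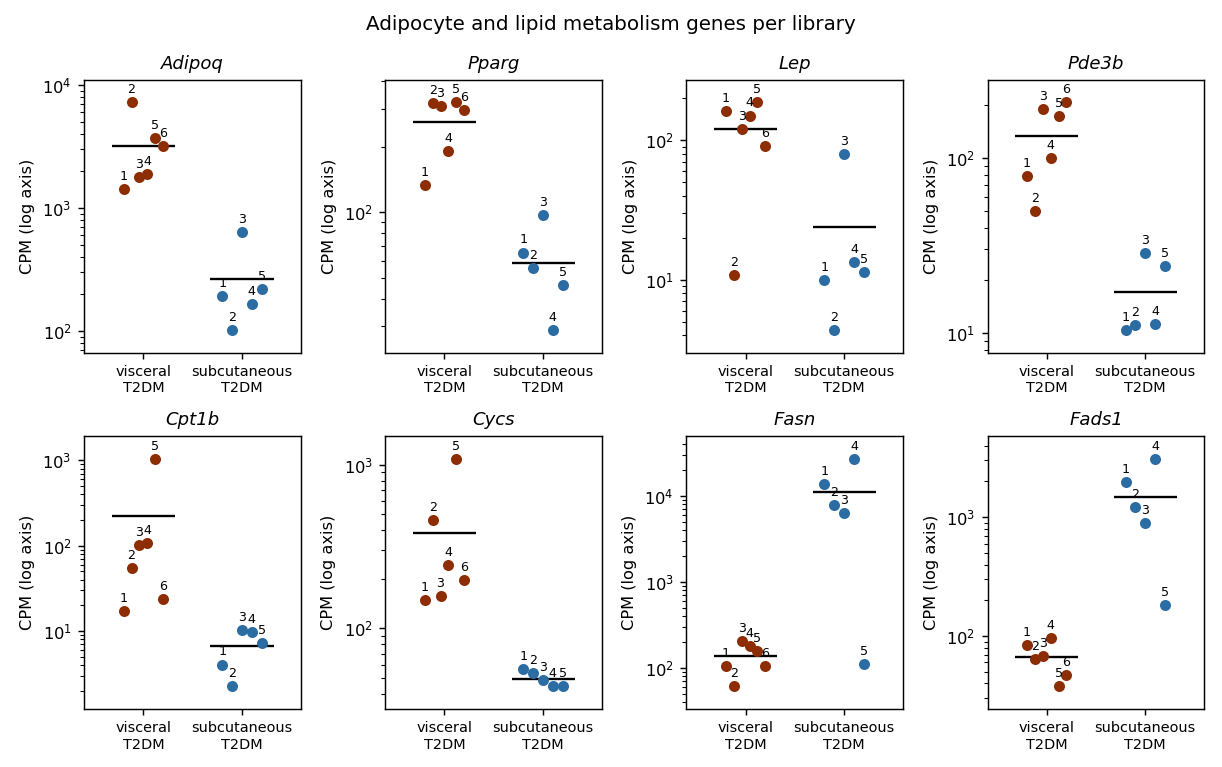
CPM per library (log axis) of 8 adipocyte and lipid metabolism genes, visceral T2DM in red on the left and subcutaneous T2DM in blue on the right of each panel; numbers are replicate numbers and bars are means. Adipoq, Pparg, Pde3b, Cpt1b and Cycs lie higher in every visceral library, Lep overlaps, and for Fasn subcutaneous library 5 lies at the level of the visceral libraries.

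Genes for burning fuel were higher in visceral fat, and most so in 2 visceral libraries. Of 74 tested nuclear genes of oxidative phosphorylation, 67 were higher, none was lower and all 74 log2 fold changes were positive (median 2.24). The mean log2 CPM of these 74 genes was 4.74, 8.48, 5.34, 5.30, 7.53 and 5.63 in visceral libraries 1 to 6, against 4.91, 4.63, 4.58, 5.00 and 4.62 in subcutaneous libraries 1 to 5. Visceral libraries 2 and 5 were far above all others, and visceral library 1 lay within the subcutaneous range. Without libraries 2 and 5 the median log2 fold change was 0.56 and 4 of the 74 genes were called. The same 2 libraries had lower levels of long transcripts relative to short ones than the rest, with rank correlations of -0.514 and -0.38 across genes between transcript length and a library's deviation from the gene's mean log2 CPM, and the part of this in the result was not tested. With the length trend removed, 64 of the 74 were called and the median was 1.47.

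Cycs, the electron carrier cytochrome c, had 149, 460, 159, 245, 1092 and 199 CPM in visceral libraries 1 to 6, against 56.7, 53.1, 48.2, 44.5 and 44.5 CPM in subcutaneous libraries 1 to 5. All visceral libraries were above all subcutaneous libraries (log2 fold change 2.96, SE 0.45, edgeR adjusted p = 0.00108), and the gene stayed called without visceral libraries 2 and 5 (log2 fold change 1.94, adjusted p = 0.000971). Uqcrq, a subunit of complex III, had 12.9, 980, 14.2, 17.0, 122 and 24.2 CPM in visceral fat, against a range of 8.19 to 11.9 CPM in subcutaneous fat (log2 fold change 4.34, SE 0.97, adjusted p = 0.00931). Library 2 alone was at 980 CPM, and without libraries 2 and 5 the log2 fold change of Uqcrq was 0.84 (adjusted p = 0.101). All 18 called genes of the 21 tested in the tricarboxylic acid cycle were higher (median 1.63), and 7 were called without visceral libraries 2 and 5. Idh2, which makes NADPH in mitochondria, was higher by 1.85 (log2, SE 0.36, adjusted p = 0.00451), and Mrps36, a small mitochondrial protein of the oxoglutarate dehydrogenase complex, by 2.88 (SE 0.45, adjusted p = 0.00113).

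Fatty acid oxidation followed the same direction, with 12 of 25 tested genes higher and none lower (median 1.47), and with 4 higher and a median of 0.56 without visceral libraries 2 and 5. Cpt1b, the muscle and brown fat form of the enzyme that admits fatty acids to mitochondria, had 17.0, 55.2, 101, 107, 1047 and 23.8 CPM in visceral fat, against 4.06, 2.28, 10.4, 9.78 and 7.27 CPM in subcutaneous fat. Library 5 was highest by far, but the groups did not overlap (log2 fold change 5.06, SE 0.95, edgeR adjusted p = 0.00331, and 3.23 with an adjusted p of 0.0105 without visceral libraries 2 and 5). Ucp1, the uncoupling protein of brown and beige adipocytes, had 23.4, 77.3, 16.2, 265, 2944 and 1.20 CPM in visceral fat, against 0, 0.0817, 0, 5.17 and 7.68 CPM in subcutaneous fat. Visceral library 6 lay within the subcutaneous range and the gene missed the threshold (log2 fold change 7.75, SE 2.56, adjusted p = 0.0627). Of 14 tested thermogenic genes, 4 were higher, among them Cidea, a lipid droplet protein of brown fat (log2 fold change 4.08, SE 0.86, adjusted p = 0.00653), and 1 was lower (median 1.46). Cidea had 1001 CPM in visceral library 5 and an adjusted p of 0.0527 without libraries 2 and 5. Phyh, a peroxisomal enzyme that breaks down branched fatty acids, had between 117 and 1670 CPM in visceral fat, against 20 to 66.7 CPM in subcutaneous fat (log2 fold change 3.73, SE 0.62, adjusted p = 0.00182).

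Of the 13 genes of the mitochondrial genome, 5 were higher and none was lower (median 1.77), and none was called without visceral libraries 2 and 5. Mt-co2, a subunit of cytochrome oxidase, averaged 31760 ± 29810 CPM in visceral and 5774 ± 2234 CPM in subcutaneous fat (SD, n = 6 and 5; log2 fold change 2.46, SE 0.67, edgeR adjusted p = 0.0263), and its call was lost without visceral library 2 or 5 or without subcutaneous library 2, 3, 4 or 5. Breakdown of branched-chain amino acids had 7 of 22 genes higher and none lower (median 0.96), again with none called without visceral libraries 2 and 5. Cytosolic ribosomal protein genes had 12 of 72 higher and none lower, and all 72 log2 fold changes were positive (median 1.91). Visceral library 2 had a mean log2 CPM of 11.42 for these genes, against 6.97 to 8.18 in the other 5 visceral libraries and 6.83 to 7.89 in subcutaneous fat. Without visceral libraries 2 and 5 the ribosomal median was -0.07 and none was called. Rps27 had 4541 CPM in visceral library 2, between 48.4 and 114 CPM in the other visceral libraries and between 42.3 and 81.1 CPM in subcutaneous fat.

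Lipid synthesis was divided. Of 28 tested genes of fatty acid and triglyceride synthesis, 5 were higher and 8 lower in visceral fat (median -0.40, and 1.46 against subcutaneous library 5 alone). Fasn, the fatty acid synthase, had 106, 61.3, 204, 177, 158 and 106 CPM in visceral libraries 1 to 6, against 13570, 7835, 6309, 26960 and 111 CPM in subcutaneous libraries 1 to 5. The 4 milk-rich libraries were above every visceral library and the milk-poor library 5 was among them (log2 fold change -6.34, SE 1.05, edgeR adjusted p = 0.00168). Against library 5 alone, the log2 fold change of Fasn was 0.29. Fads1, a desaturase that makes polyunsaturated fatty acids, had between 38.1 and 97.2 CPM in visceral fat, against 1968, 1227, 899, 3104 and 183 CPM in subcutaneous fat, without overlap (log2 fold change -4.47, SE 0.64, adjusted p = 0.000756). Scd2, a stearoyl-CoA desaturase that makes monounsaturated fatty acids, had 79.4, 29.3, 64.0, 131, 26.2 and 35.2 CPM in visceral fat, against 360, 378, 154, 178 and 310 CPM in subcutaneous fat. For Scd2 the milk-poor library was as high as the rest, and its log2 fold change was -2.18 (SE 0.39, adjusted p = 0.00267), with the same value of -2.18 in the model with the milk covariate (adjusted p = 0.335). On the triglyceride side, Agpat2, which acylates lysophosphatidic acid, was higher in visceral fat by 4.07 (log2, SE 0.82, adjusted p = 0.00497), with no overlap between 50.9 to 623 CPM in visceral and 6.24 to 39.1 CPM in subcutaneous fat. The higher group also held Dgat1 and Dgat2, which add the last acyl chain, with log2 fold changes of 2.65 (adjusted p = 0.00866) and 3.02 (adjusted p = 0.0147), both chosen for mention after their values were seen. Without visceral libraries 2 and 5, Agpat2 was the 1 higher gene of the list still called (adjusted p = 0.0355), with adjusted p of 0.0794 for Dgat1 and 0.0637 for Dgat2.

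Of 28 tested genes of lipolysis and the lipid droplet, 11 were higher, 2 were lower and 15 were not called (median 1.91). Without visceral libraries 2 and 5, 3 were higher and 1 was lower (median 1.79). Pde3b, the phosphodiesterase through which insulin restrains lipolysis, had 78.7, 49.5, 190, 99.8, 174 and 207 CPM in visceral fat, against 10.4, 11, 28.6, 11.2 and 24.0 CPM in subcutaneous fat. The groups were apart (log2 fold change 2.97, SE 0.60, edgeR adjusted p = 0.0052) and the gene stayed called without visceral libraries 2 and 5 (adjusted p = 0.0152). Hcar2, the niacin and ketone body receptor that also restrains lipolysis, had between 28.7 and 98.4 CPM in visceral fat, against 3.80 to 16.3 CPM in subcutaneous fat (log2 fold change 2.81, SE 0.61, adjusted p = 0.00803). Plin2, a droplet coat protein also of milk fat globules, had between 134 and 237 CPM in visceral fat, against 1031, 903, 673, 1908 and 82.1 CPM in subcutaneous fat, with library 5 below every visceral library (log2 fold change -2.32, SE 0.52, adjusted p = 0.00978). Of 18 tested genes for lipoprotein lipase and fatty acid uptake, 6 were higher and none lower (median 0.59), and 2 were higher without visceral libraries 2 and 5. Lpl, the lipase that frees fatty acids from lipoproteins, was higher by 1.62 (log2, SE 0.50, adjusted p = 0.0483), and its call was lost without any 1 of 9 libraries, visceral libraries 1 and 3 being the exceptions. Cholesterol synthesis had 4 of 23 genes higher and none lower (median 0.41), and adipocyte differentiation 5 of 22 higher and 2 lower (median 0.57), with 1 higher and 2 lower without visceral libraries 2 and 5.

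Inflammatory signals differed in a few genes. Il6, the interleukin-6 gene, had 124, 2.30, 50.2, 51.0, 21.4 and 9.02 CPM in visceral libraries 1 to 6, against 0.504, 0.592, 3.65, 1.70 and 1.45 CPM in subcutaneous libraries 1 to 5. Visceral library 2 alone lay within the subcutaneous range, and the log2 fold change was 4.77 (SE 1.05, edgeR adjusted p = 0.00832). Cxcl1, a neutrophil-attracting chemokine, had 104, 8.63, 88.8, 115, 20.2 and 17.8 CPM in visceral fat, against 4.25, 1.69, 4.23, 4.67 and 2.73 CPM in subcutaneous fat, without overlap (log2 fold change 4.08, SE 0.87, adjusted p = 0.00699). Its relative Cxcl2 was higher by 4.06 (log2, SE 0.88, adjusted p = 0.00734). All of these stayed called without visceral libraries 2 and 5 and without visceral libraries 2, 3 and 4. Of 31 tested cytokine and chemokine genes, 5 were higher and Lcn2 was lower (median 0.48). Of 14 neutrophil and mast cell genes, Mpo, the neutrophil peroxidase, and Cxcr2, the receptor for these chemokines, were higher and none was lower (median -0.41). Mpo averaged 115 ± 81.5 CPM in visceral and 6.63 ± 6.26 CPM in subcutaneous fat (SD, n = 6 and 5; log2 fold change 4.12, SE 0.94, adjusted p = 0.0102), while Cxcr2 lost its call without visceral library 1 or without subcutaneous library 1, 2, 4 or 5.

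Markers of other immune cells showed few differences, where 5.44% of all tested genes were higher and 3.28% lower. Among 22 macrophage genes Lpl was higher and Cd9 lower (median -0.01), and among 11 B and plasma cell genes Sdc1, which epithelium also expresses, was higher and none lower (median -0.88). Sdc1 was at 139, 521 and 361 CPM in the urothelium-rich visceral libraries 2, 3 and 4, against 24.1 to 56.9 CPM in the other visceral libraries and 7.52 to 39.7 CPM in subcutaneous fat. No gene passed the test among 20 of T and NK cells (median 0.09), 16 of MHC class II presentation (0.27) or 24 of the interferon response (-0.07). Immediate early genes, which respond within minutes to handling among other stimuli, had 2 of 24 higher and none lower (median 0.79), and the glucocorticoid response had 2 of 17 higher and none lower (median 0.00). Clock genes had 2 of 18 lower and none higher (median -0.80, and 0.02 against subcutaneous library 5 alone). No gene was called among 13 of sex steroid receptors and conversion (median 0.64) or 21 endoplasmic reticulum chaperones (median -0.11), and 1 of 18 cell cycle genes was lower (median -0.34).

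Matrix and vessel genes held few calls. Of 45 extracellular matrix genes 3 were lower and none higher (median -0.39), where 3.28% of all tested genes were lower, and 1 was lower without visceral libraries 2 and 5 and none without visceral libraries 2, 3 and 4. Tgfb2, a transforming growth factor that drives matrix deposition, had between 10.2 and 34.6 CPM in visceral fat, against 96.7, 70.0, 55.7, 129 and 112 CPM in subcutaneous fat, without overlap (log2 fold change -2.20, SE 0.43, edgeR adjusted p = 0.00456). Col1a1, the main chain of type I collagen, had between 197 and 938 CPM in visceral fat, against 1269, 1962, 1815, 572 and 21910 CPM in subcutaneous fat. Subcutaneous library 5, the milk-poor library, was highest by far (log2 fold change -3.91, SE 1.09, adjusted p = 0.0297), and the call was lost without it and without visceral library 2, 5 or 6. That library was above every visceral library for 25 of the 45 matrix genes and below for 2. Of all tested genes, 14.6% lay above and 13.9% below in this way. Its summed level of listed matrix genes was 76200 CPM, against at most 24300 CPM in visceral fat. Its mean log2 CPM over the tested matrix genes was 7.57, close to the 7.56 of visceral library 1. For 12 of 22 stromal progenitor genes and 13 of 22 macrophage genes it was also above every visceral library, and below for 0 and 1. Library 5 thus stood out in more than its milk genes. Among 22 stromal progenitor genes 1 was lower and none higher (median -0.39), among 16 of blood endothelium Plvap, a protein of capillary fenestrae, was lower (median 0.19), and among 10 of lymphatic endothelium Prox1 and Reln were lower (median -0.73). Prox1, the master factor of lymphatic endothelium, had between 0.0927 and 4.03 CPM in visceral fat, against 85.2, 43.1, 69.7, 216 and 1.25 CPM in subcutaneous fat, so it was high only in the 4 milk-rich libraries. The 15 smooth muscle and pericyte genes held no call (median 0.29), and of 24 complement and liver-type plasma protein genes Tf, the transferrin gene, was lower and none was higher (median -0.60).

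Several epithelial and nerve markers were high in some libraries of a depot and not in others. Of 17 urothelial genes 7 were higher and none lower (median 3.06). Upk3a, a uroplakin of the bladder lining, had 8.46, 480, 326, 149, 1.67 and 0.444 CPM in visceral libraries 1 to 6, against 0, 0, 0, 0.942 and 0.759 CPM in subcutaneous libraries 1 to 5. Libraries 2, 3 and 4 carried the signal (log2 fold change 8.93, SE 1.85, edgeR adjusted p = 0.00597), and without them the adjusted p was 0.2 and the list's median -1.50. These libraries were singled out by their urothelial counts, so a lower median followed from that choice. Uchl1, a ubiquitin hydrolase of neurons and some epithelia, had 12.7, 543, 426, 330, 2.78 and 1.55 CPM in visceral fat, against 0.646 to 1.42 CPM in subcutaneous fat (log2 fold change 7.78, SE 1.27, adjusted p = 0.00155). Upk1a, Upk2, Upk1b, Krt7, Sptssb and Sprr1a were likewise highest in visceral libraries 2, 3 and 4, with log2 fold changes between 6.01 and 8.35. Cpa1, a digestive enzyme of the exocrine pancreas, had 397 CPM in visceral library 2, between 2.28 and 6.92 CPM in the other visceral libraries and between 0 and 1.14 CPM in subcutaneous fat (log2 fold change 7.16, SE 1.61, adjusted p = 0.00964). Of 3 pancreatic genes tested 2 were higher (median 5.09), and Cela1 lost its call without visceral library 2. Of 11 mesothelial genes only Wt1 was called, and it was higher (median 0.55).

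Sox10, a factor of Schwann cells and of mammary epithelium, had between 1.07 and 4.17 CPM in visceral fat, against 172, 153, 134, 366 and 1.85 CPM in subcutaneous fat (log2 fold change -6.19, SE 0.88, edgeR adjusted p = 0.000697), so the milk-poor library again matched visceral fat. Of 14 Schwann cell and nerve genes 2 were higher and 2 lower (median -0.24). Skin and ductal epithelium had 1 of 19 higher, Krt7, and 1 lower, Cldn3 (median -0.07). That list's median was -3.60 with 5 lower and none higher without visceral libraries 2, 3 and 4, and 5.17 with 18 of 19 values positive and none called without the 4 milk-rich libraries. Intestinal epithelium had 1 of 3 tested genes lower (median -0.65), the gut hormone and bile acid receptors had the secretin receptor Sctr higher among 5 tested (median 0.28), and neither 6 skeletal muscle genes (median 0.33) nor 6 blood cell genes (median 1.72) held a call.

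**Figure D4:**
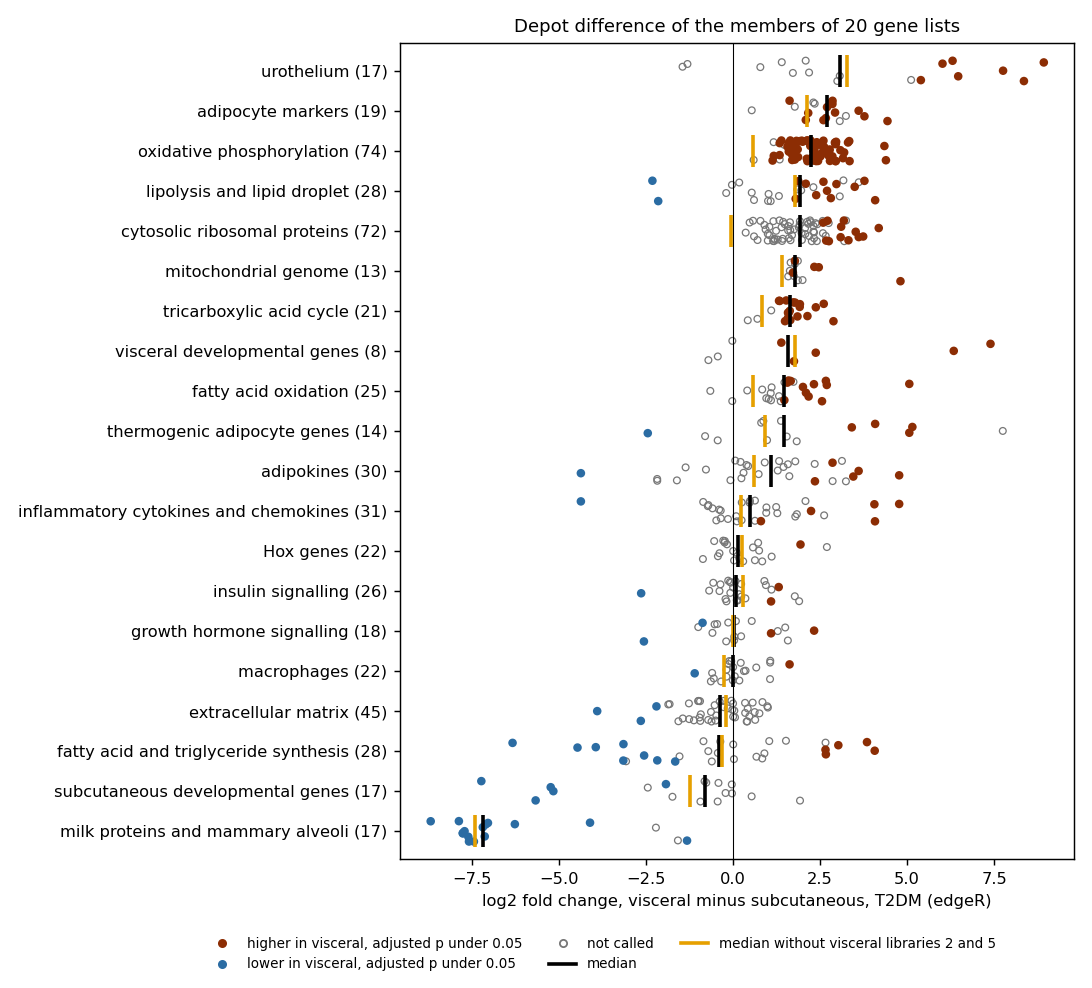
Log2 fold change, visceral minus subcutaneous T2DM fat, of every tested member of 20 gene lists (number tested in brackets); filled points passed the test (red higher, blue lower in visceral fat), open points did not, black lines are list medians and orange lines are medians without visceral libraries 2 and 5. The black and orange lines lie far apart for oxidative phosphorylation (2.24 and 0.56) and ribosomal proteins (1.91 and -0.07), and close together for milk genes and for visceral developmental genes.

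Among the genes with the smallest p and no overlap between libraries, Rasal1, a Ras GTPase-activating protein, had between 0.737 and 2.62 CPM in visceral fat, against 35.3, 27.9, 43.5, 116 and 16.6 CPM in subcutaneous fat (log2 fold change -5.02, SE 0.55, edgeR adjusted p = 0.000111). Gna14, a G protein alpha subunit, had between 0.854 and 1.96 CPM in visceral fat, against 20, 16.7, 15.5, 28.5 and 5.81 CPM in subcutaneous fat (log2 fold change -3.69, SE 0.42, adjusted p = 0.000132). In both genes the milk-poor library was the lowest subcutaneous library and still above all visceral libraries. Rdh12, a retinol dehydrogenase, had 4.85, 5.40, 4.51, 1.89, 12.9 and 10.5 CPM in visceral fat, against 0.567, 0.327, 0.585, 0.721 and 0.119 CPM in subcutaneous fat (log2 fold change 3.85, SE 0.70, adjusted p = 0.00296). Abhd15, an adipocyte protein that stabilises Pde3b in mice, had between 18.2 and 30.0 CPM in visceral fat, against 1.98 to 5.94 CPM in subcutaneous fat (log2 fold change 2.70, SE 0.46, adjusted p = 0.00188). The largest negative values, from -9.55 for the mucosal chemokine gene Ccl28 to -8.13 for the nucleoside transporter gene Slc28a3, belonged to 12 genes that were high in the 4 milk-rich libraries, among them the vitamin D-degrading enzyme gene Cyp24a1 (-9.07), the citrate and dicarboxylate transporter gene Slc13a2 (-8.84) and the water channel gene Aqp5 (-8.56).

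The depot difference was measured again in DJB fat, whose libraries enter neither mean of the T2DM contrast but share its estimate of the spread and its filter on low values. There 185 of 14019 genes (1.32%) were called, 32 higher (0.228%) and 153 lower (1.09%) in visceral fat, and 2028 had an unadjusted p under 0.05. In both conditions 17 genes were higher and 69 lower, 7.04% of the T2DM calls and 46.5% of the DJB calls, and none was called in opposite directions. Of the 762 genes higher in visceral T2DM fat, 572 (75.1%) had a positive value in DJB, against 46.5% of all tested genes, and their median log2 fold change was 2.05 in T2DM and 0.27 in DJB. Of the 460 lower genes, 419 (91.1%) had a negative value in DJB, against 53.5% of all tested genes, with medians of -2.31 in T2DM and -1.0 in DJB. Milk genes were high in some subcutaneous DJB libraries too, with shares between 0.176% and 8.16%.

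Of the visceral developmental genes 5 were higher in T2DM and 3 in DJB (medians 1.56 and 0.90), and of the subcutaneous ones 5 were lower in T2DM and 4 in DJB (medians -0.82 and -0.72). The log2 fold change of Tcf21 was 7.39 in T2DM and 6.53 in DJB (edgeR adjusted p = 0.000878 in DJB), that of Wt1 6.34 and 7.07 (adjusted p = 0.000653), that of Tbx15 -5.17 and -4.43 (adjusted p = 0.000878) and that of Irx1 -7.24 and -5.19 (adjusted p = 0.0204). Il6 had 4.77 in T2DM and 5.47 in DJB (adjusted p = 0.0249), Cxcl1 4.08 and 4.59 (adjusted p = 0.0217) and Rdh12 3.85 and 4.01 (adjusted p = 0.0204). Adipocyte markers had a median of 2.70 in T2DM and 0.76 in DJB, where none of the 19 was called. Oxidative phosphorylation had a median of 2.24 in T2DM and 0.08 in DJB, again with none called in DJB, and ribosomal proteins had 1.91 and -0.80. Adipoq had a log2 fold change of 3.60 in T2DM and 1.04 in DJB (adjusted p = 0.583 in DJB).

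The difference between the depot contrasts was tested in the same model, as T2DM minus DJB. No gene passed (0% of 14019 by edgeR, smallest adjusted p = 0.12, with 1957 genes at an unadjusted p under 0.05), whereas DESeq2 called 123 and limma none. The genes with the smallest p included Uchl1, with a difference of 8.33 (SE 1.48), Upk3a with 9.38 (SE 2.13), Krt7 with 6.91 (SE 1.53), Mrps36 with 2.60 (SE 0.59) and Tf with -3.10 (SE 0.65). The first 3 of these were high in the urothelium-rich visceral T2DM libraries. None of the depot differences above was thus shown by edgeR to differ between T2DM and DJB fat. DJB rats carry the same diet and STZ labels and there is no healthy group, so what is particular to diabetes could not be tested.

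**Figure D5:**
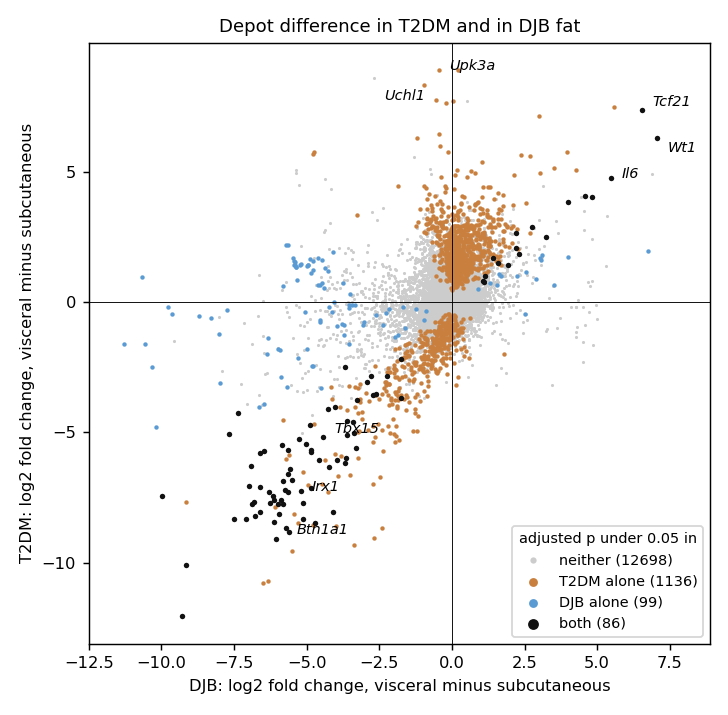
Log2 fold change, visceral minus subcutaneous, of each of 14019 tested genes in T2DM fat (vertical axis) against DJB fat (horizontal axis); colours show where the adjusted p was under 0.05. Tcf21, Wt1 and Il6 lie high and Tbx15, Irx1 and Btn1a1 low in both, while Upk3a and Uchl1 are high in T2DM (log2 8.93 and 7.78) and not called in DJB (-0.46 and -0.55); 86 genes were called in both conditions, 1136 in T2DM alone and 99 in DJB alone.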

How the data were processed

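RNA-seq of 11 T2DM fat libraries was analysed beside 11 DJB libraries. The authors' deposited table gives raw counts per gene and, from the same counting, FPKM (reads scaled by transcript length and library size), per the file headers. The submitters' processing notes list cutadapt 1.9 and build mRatBN7.2. For the aligner, counting tool, strand setting and annotation nothing is stated in the labels or headers. Gene coordinates in the table reach 282.724 Mb on chromosome 1, so the build behind them is in doubt and none is printed. Reads shared by near-identical genes (caseins, globins, ribosomal proteins) or by overlapping and antisense genes could be counted under either.

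Of 24286 genes, 14019 with at least 1 FPKM in at least 5 libraries were tested with edgeR 4.0.16 (R 4.3.3) on the deposited counts: TMM factors 0.543 to 1.39, 1 mean per group over 22 libraries, quasi-likelihood test, two-sided, Benjamini-Hochberg adjustment over all tested genes, threshold 0.05. Standard errors were derived from the fold change and the test statistic. The biological coefficient of variation was 0.551. Code was tested on simulated data. DESeq2 1.42.0, limma 3.58.1 on log2(FPKM + 1) and other settings were alternatives.

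Named genes were the 12 largest and 12 smallest fold changes at a mean of at least 2 FPKM, the 12 smallest p in each direction without overlap between libraries, up to 4 members of each list by p, its most abundant member, 19 fixed genes and the 10 smallest p of the T2DM minus DJB difference. The comparison, the 49 gene lists and the tests were chosen with earlier results of these data known. Lists are described by counts and medians alone, and 1152 of 1215 list entries matched a row. A few genes that the rule names are not reported here.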

Additional observations from a re-analysis of the deposited data

Results flagged for a closer look

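In 24 of 136 groups of libraries examined, the highest or the lowest library lay apart from the others by Dixon's criterion at 95%. Chance gives about 1 in 20 for independent groups picked without regard to their values. Many groups here were genes named for their fold change or p in these same libraries, so the count cannot be set against that rate. Of the 24, 15 concerned subcutaneous library 5. Its milk gene share of 0.246% lay below the other 4 libraries, and so did its CPM of Slc13a2 (0.432), Btn1a1 (5.27), Aqp5 (0), Lrrc26 (0.119), Muc4 (0.923), Itprid1 (0.0894), Hhipl2 (0.253), Cldn3 (0.298), Slc28a3 (0.581), Qsox1 (60.6), Stac2 (1.33), Insr (33.9) and Inhbb (14.7), whereas its Mrps36 (8.06 CPM) lay above.

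Visceral library 2 stood apart with low Lep (10.9 CPM), Adipor2 (14.5 CPM) and Insr (16.8 CPM) and with high Cpa1 (397 CPM). The remaining cases were Ccl28 in visceral library 4 (0.0537 CPM, the other visceral libraries at 0), and in subcutaneous fat Tcf21 in library 1 (0 CPM), Mecr in library 2 (4.04 CPM, low), Fndc5 in library 3 (1.44 CPM, low) and Slc2a4 in library 4 (11.3 CPM, low).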

How the results depend on the processing

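The 1222 depot calls in T2DM fat became 1231 with DESeq2's size factors, 1229 with milk and mitochondrial genes left out of the scaling, 993 without a filter and 1051 with the length trend removed. They became 1964 with DESeq2 (1276 higher, 688 lower; 1169 of the 1222 shared), 716 with limma at a pseudocount of 1 (241 higher, 475 lower; 614 shared), 642 at 0.1, and 577 with only the T2DM libraries fitted. Leaving out visceral libraries 2, 3 and 4 gave 797, visceral libraries 2 and 5 gave 454, the 4 milk-rich subcutaneous libraries gave 8, and the milk share as a covariate, chosen after seeing the data, gave 7. The count ranged from 575 (without subcutaneous library 4) to 1779 (without visceral library 1) when 1 library at a time was left out. The 185 DJB calls became 719 with DESeq2, 13 with limma, 110 without a filter, 274 with the length trend removed and 9 with the covariate. For the difference T2DM minus DJB, DESeq2 called 123 genes and the other settings none. With 1 library left out, the share differences in percentage points stayed between 13.9 and 20.6 (mitochondrial genome), -13.1 and -8.07 (milk) and 0.0481 and 0.128 (urothelium).

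Same-numbered visceral and subcutaneous libraries did not deviate together (correlations -0.0126, -0.133, 0.272, -0.0509 and 0.0832, 1 of 5 libraries correlating best with its own number), so the numbers were not taken as pairs. A replicate block gave 91 calls in T2DM (88 shared) and 1 in DJB.

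Of 138 called genes named by the rule, none changed direction except with the milk-rich libraries left out (16 genes, library 5 standing alone and assumed to vary like other groups) or with the covariate (19 genes). Those lower in visceral fat then had positive log2 values. Without the milk-rich libraries these were Ccl28 2.65, Aqp5 4.92, Cldn3 0.30, Lcn2 0.47, Slc2a1 0.27, Fasn 0.29, Plin2 1.16, Bhlhe41 0.69, Hlf 0.27, Ly6al 0.88, Prox1 0.67, Reln 0.76, Slc34a2 0.24, Elf5 0.02, Slc5a1 0.25 and Sox10 0.29. With the covariate they were Ccl28 0.62, Btn1a1 0.55, Aqp5 0.79, Lrrc26 0.66, Itprid1 0.55, Hhipl2 0.77, Clca1 1.58, Qsox1 0.02, Stac2 0.14, Lcn2 1.68, Fasn 1.35, Plin2 1.13, Hlf 0.64, Ly6al 1.27, Prox1 0.48, Reln 0.00, Slc34a2 1.27, Elf5 1.02 and Slc5a1 1.39. The cause was not tested. The covariate is a share of counts to which listed milk genes such as Btn1a1 and Slc34a2 themselves contribute. It also did not overlap between the depots in T2DM fat, at most 0.158% in visceral and at least 0.246% in subcutaneous libraries. The covariate model can therefore hardly tell milk share from depot, and its few calls and changed signs do not decide between them.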

Other observations

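Several genes were high in a few libraries, and were picked out after their values were seen. Zic1, Msx2 and Gata5 were too low for the test, whereas Hoxb8 was tested. Zic1, a zinc finger factor of dorsal mesoderm, had 20.4 CPM in the milk-poor subcutaneous library 5 and at most 0.160 CPM in the other 10 libraries. Msx2, a homeobox factor, had 13.5, 25.2 and 17.9 CPM in visceral libraries 2, 3 and 4, and at most 1.00 CPM in the other 8 libraries. Gata5, a zinc finger factor of endoderm and mesoderm, had 3.27, 15.3 and 9.62 CPM in the same visceral libraries, and at most 0.584 CPM elsewhere. Both thus followed the urothelial genes by library. Hoxb8 had 15.7 and 10.4 CPM in visceral libraries 3 and 4, against 0.344 to 1.5 CPM in the other visceral libraries and 0.328 to 1.48 CPM in subcutaneous fat, and did not pass the test (edgeR adjusted p = 0.0611).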
